A study of Mus musculus with 12 samples.

Results

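Collagens are the main structural proteins of the extracellular matrix, and each collagen chain is the product of its own gene. The genes described here are the mouse collagen chain genes measured in heart ventricle: protein-coding genes whose symbol is Col, a number, a and a number, with a value above 0 in at least 6 of 12 libraries. Of 44 such symbols among the 51912 genes in the table, 36 met the rule, namely 8 fibrillar chains, 8 basement membrane chains and 20 other chains. Col9a3 and Col17a1 lay just inside the rule with a value above 0 in 6 libraries, and Col10a1 lay just outside it with 5.

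RNA from fresh ventricle tissue was sequenced in 12 libraries, 3 in each of 4 groups: females and males that were wild type (WT) or LCHADD. In LCHADD the long-chain 3-hydroxyacyl-CoA dehydrogenase is deficient, an enzyme that mitochondria need to break down long fatty acids. No treatment was given to any group, and the labels state neither age nor strain, nor how the genotype was made. They also do not say whether the 3 libraries of a group came from separate animals, so p-values measure the spread between these libraries.

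Collagen chains share a helical stretch in which glycine is followed by a pair of further residues over and over, and chains wind around each other along that stretch. Fibrillar collagens form the fibrils that bear load between heart muscle cells, and cardiac fibroblasts are known as their main source. Type IV collagen forms a mesh in the basement membranes around muscle cells and capillaries, types XV and XVIII sit at the edge of those membranes, and type VI forms beaded filaments near cell surfaces.

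The repeat can be read in the coding sequences, which show how the 3 classes differ as genes. The stretches below are the start of the longest uninterrupted run of glycine-led codon triplets in 5 chains whose measurements are given later. Each has 54 bases from GENCODE vM21 coding sequences (GRCm38), with the glycine codon that leads each triplet in capitals.
Col1a1: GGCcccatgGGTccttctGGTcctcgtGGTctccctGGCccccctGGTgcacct
Col3a1: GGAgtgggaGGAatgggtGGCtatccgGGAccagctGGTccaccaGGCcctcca
Col5a1: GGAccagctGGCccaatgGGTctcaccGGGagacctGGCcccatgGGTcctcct
Col6a1: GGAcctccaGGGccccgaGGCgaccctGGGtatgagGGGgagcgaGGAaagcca
Col22a1: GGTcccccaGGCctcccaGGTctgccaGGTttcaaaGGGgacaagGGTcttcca
In type IV chains the repeat is broken many times. The stretch of Col4a1 shown next holds the end of its longest run, a break of 30 bases in which glycine does not lead each triplet, and the start of the next run.
Col4a1: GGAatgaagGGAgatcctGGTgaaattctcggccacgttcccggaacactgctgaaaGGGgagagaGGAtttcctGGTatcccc
The longest run was 217 to 344 repeats in the 8 fibrillar chains (median 338), 30 to 66 repeats in the 8 basement membrane chains (median 41) and 23 to 113 repeats in the 20 other chains (median 48.5). Counting runs of at least 5 repeats, fibrillar chains had 2 or 3 runs and basement membrane chains 11 to 27. The exons showed the classes too. Inner coding exons of 45, 54, 99, 108 or 162 bases, lengths known from fibrillar collagen genes, made up 354 of 452 (78.3%) in fibrillar chains, 58 of 361 (16.1%) in basement membrane chains and 185 of 772 (24.0%) in the other chains. Col22a1, Col9a2 and Col9a3 stood between, each with a longest run of 113 repeats, and with 60.7% of the inner coding exons at these lengths in Col22a1 and 53.3% in Col9a2 and in Col9a3.

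**Figure D1:**
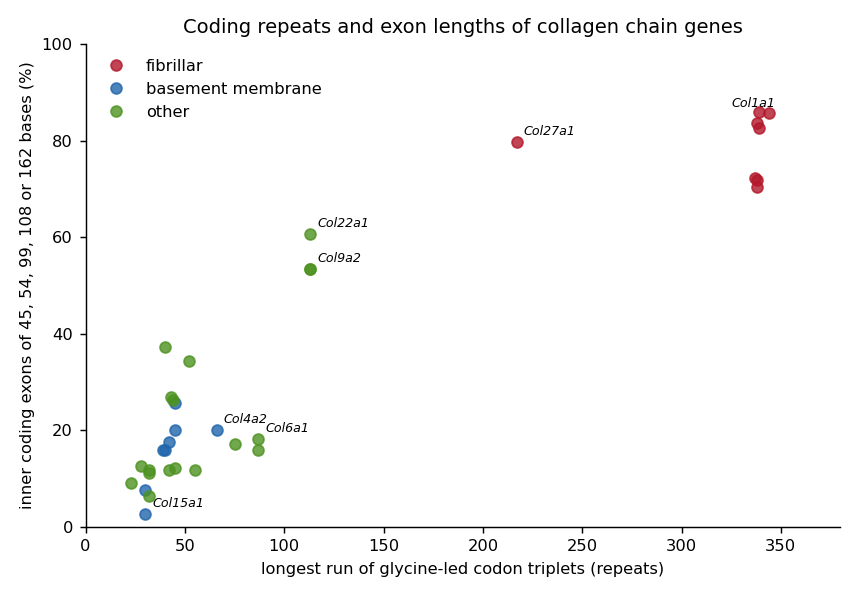
Each point is a collagen chain gene, with the longest uninterrupted run of glycine-led codon triplets in its coding sequence on the x axis and the percentage of its inner coding exons with 45, 54, 99, 108 or 162 bases on the y axis. The 8 fibrillar chains lie at 217 to 344 repeats, right of all basement membrane and other chains, and Col8a1 and Col8a2, which have no inner coding exon, are not drawn.

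The libraries held about 15613700 to 23174900 reads assigned to genes. Values are normalised reads, the read count of a gene divided by 1 size factor per library. Mitochondrial genes took 27.5% to 32.7% of reads in WT libraries and 31.0% to 37.9% in LCHADD libraries, and all collagen chains together took 0.0840% to 0.112% in WT and 0.0651% to 0.0909% in LCHADD. The ventricular markers Myl2, Myl3 and Irx4 summed to 151883 to 242469 normalised reads, against 131 to 285 for the atrial markers Myl7, Sln, Myl4 and Nppa. Hadha, the gene of the enzyme that is deficient in LCHADD, had 21430 to 25845 normalised reads in WT and 23343 to 28083 in LCHADD libraries. It differed by 0.15 (SE 0.070, adjusted p = 0.106) in females and 0.18 (SE 0.070, adjusted p = 0.0928) in males on the log2 scale, so its read number does not check the genotype labels. LCHADD female 2 and LCHADD female 3 differed more than any other pair of replicates, with a chi-square per gene of 53.1 against 4.62 to 22.5 for the rest. By the lowest value, 4.62, no library was a copy of another in its group. Pairs across groups were not compared in this way.

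Differences were tested for 13865 genes with at least 10 normalised reads in at least 3 libraries. The test was limma on log2(value + 1), adjusted over those genes, and a gene passed at an adjusted p under 0.05. Of the 36 collagen chain genes, 29 entered the test: all 8 fibrillar chains, all 8 basement membrane chains and 13 of the 20 other chains. Changes are LCHADD minus WT on that log2 scale, which understates the change of genes with few reads.

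Per kilobase of transcript, type IV collagen was the most abundant collagen RNA of the ventricle. In the 6 WT libraries Col4a1 stood at 719 ± 74.2 (SD) and Col4a2 at 614 ± 46.9 normalised reads per kb, and the ranges of these levels over libraries overlapped. Col3a1, the chain of type III collagen, followed at 335 ± 35.1 per kb. Next came Col6a2 at 229 ± 20.6, Col6a1 at 209 ± 15.6, Col15a1 at 199 ± 15.6 and Col1a2 at 193 ± 23.6 normalised reads per kb, where each differed from the next by less than an SD. Col1a1 had 134 ± 19.5 and Col4a5 had 107 ± 10.4 per kb. The type V chains Col5a2, Col5a1 and Col5a3 all lay between 48.8 and 49.4 per kb, and the lowest tested chain was Col12a1 at 0.680 ± 0.229 per kb. The transcript lengths are those of the longest coding transcript in GENCODE vM21, and which transcripts the ventricle uses was not measured.

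**Figure D2:**
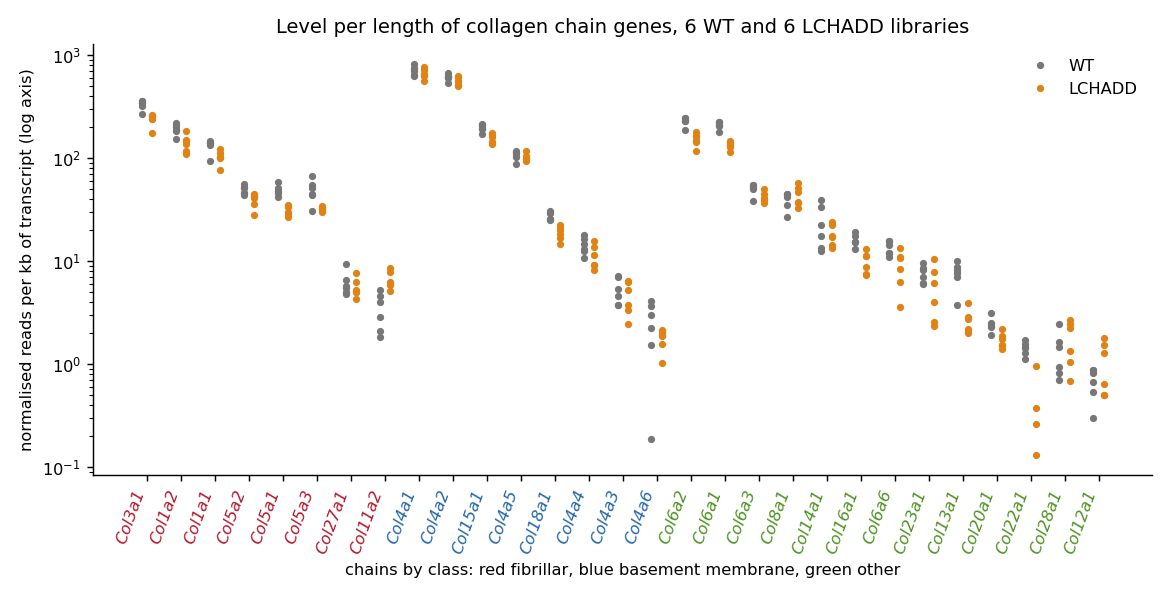
Each point is a library, with normalised reads per kilobase of transcript on a log axis for the 29 tested chains, grouped by class and ordered by level in WT (grey, 6 libraries) beside LCHADD (orange, 6 libraries). Col4a1 and Col4a2 are the highest chains in both genotypes, and the values of Col22a1 at 0 in LCHADD female 2 and LCHADD female 3 are not drawn.

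In females, most chains of interstitial fibrils and filaments were lower in LCHADD, while the abundant type IV chains were not called. Of the 29 tested chains, 15 fell and 2 rose, and 12 did not pass. Over all tested genes 33.8% passed in either direction, 17.2% as lower and 16.7% as higher. By class, 6 of 8 fibrillar chains, 2 of 8 basement membrane chains and 7 of 13 other chains fell. The median log2 change was -0.53 over the collagen chains and -0.0035 over all tested genes, and by class it was -0.56 for fibrillar, -0.47 for basement membrane and -0.76 for other chains. 9 chains fell by at least 1.5-fold, which 8.81% of all tested genes did, and 17 chains were lower in all 3 LCHADD females than in any WT female, as were 22.3% of all tested genes. Among the 17, Col20a1 and Col22a1 entered the test through WT libraries alone and Col13a1 almost wholly so. For these chains a lower level in LCHADD was part of how they came to be tested. Col13a1 and Col22a1 are also among the 15 and the 9. Of the 2 that rose, Col12a1 entered the test almost wholly through the LCHADD females, where it was high.

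In males, fewer chains were called. Of the 29 chains, 6 fell and 0 rose: Col1a2, Col5a1, Col18a1, Col6a1, Col6a2 and Col13a1. Of all tested genes 15.5% passed in males, 7.77% as lower and 7.71% as higher. The median log2 change of the chains was -0.24, against 1.97e-05 over all tested genes (-0.14 without LCHADD male 3 and -0.37 without WT male 2), and 12 chains were lower in all LCHADD males than in any WT male, against 19.3% of all tested genes. All 6 had also fallen in females, and 6.69% of all tested genes fell in both sexes. Of these, Col13a1 passed the filter on low values mainly through its WT libraries. Col20a1 and Col22a1, which entered through WT libraries alone, are with Col13a1 among the 12 chains without overlap. The male count rested on single libraries: 2 chains passed without WT male 1, without WT male 3 or without LCHADD male 2, and 3 without LCHADD male 3. Col5a1 and Col6a1 passed under each of 25 alternatives in males.

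**Figure D3:**
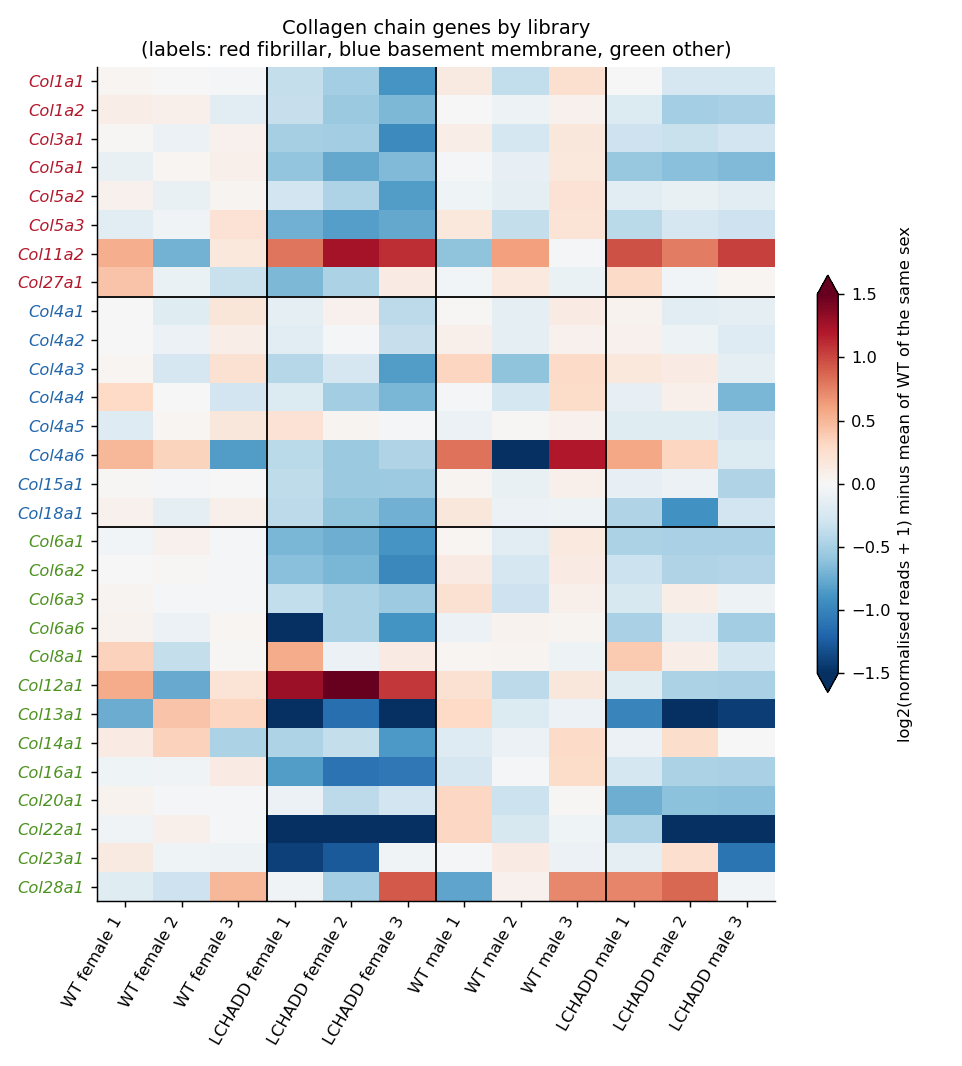
Rows are the 29 tested chains by class, columns the 12 libraries, and colour is log2(normalised reads + 1) minus the mean of WT libraries of the same sex, limited to the range from -1.5 to 1.5. Most fibrillar rows and the type VI rows are blue in the LCHADD female columns. In the LCHADD male columns most of these rows are paler, and Col6a3 is near white there. The Col4a1, Col4a2 and Col4a5 rows are near white.

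Among the fibrillar chains, Col1a1 and Col1a2 encode the chains of type I collagen, the bulk of cardiac fibrils. Col1a1 had 864, 844 and 834 normalised reads in WT females, against 661, 597 and 460 in LCHADD females. In males it had 799, 562 and 858 in WT, against 727, 611 and 604 in LCHADD. The female groups did not overlap, and the male groups did, since WT male 2 was the lowest of the males. Its log2 change was -0.58 (SE 0.15, adjusted p = 0.00777) in females and -0.17 (SE 0.15, adjusted p = 0.479) in males. Col1a2 had 997, 986 and 828 in WT females against 733, 636 and 583 in LCHADD females, and 1134, 1068 and 1182 in WT males against 976, 793 and 801 in LCHADD males. Neither sex overlapped. Col1a2 fell by 0.53 (SE 0.11, adjusted p = 0.00168) in females and by 0.40 (SE 0.11, adjusted p = 0.0205) in males. The male call of Col1a2 was lost without WT male 1, WT male 3, LCHADD male 2 or LCHADD male 3, with an adjusted p of up to 0.0841.

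Col3a1, whose type III collagen joins type I in the same fibrils, was the most abundant fibrillar chain. WT females had 1939, 1800 and 1992 normalised reads, and LCHADD females 1355, 1334 and 986. WT males had 1926, 1493 and 2018, and LCHADD males 1443, 1429 and 1469. All LCHADD libraries were below all WT libraries, and WT male 2 came closest to them. The fall was 0.65 (SE 0.12, adjusted p = 0.000810) in females, and the male change of -0.31 (SE 0.12) did not pass (adjusted p = 0.0988). Without WT male 2 the male change of Col3a1 was -0.45 and passed (adjusted p = 0.0286).

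Type V collagen is built into fibrils at their start and limits their width. Col5a1 had 353, 389 and 403 normalised reads in WT females, against 253, 224 and 240 in LCHADD females. In males the values of Col5a1 were 433, 404 and 493 in WT, against 298, 286 and 280 in LCHADD. No LCHADD library reached the lowest WT library in either sex. Col5a1 fell by 0.67 (SE 0.10, adjusted p = 0.000145) in females and by 0.62 (SE 0.10, adjusted p = 0.000934) in males, and it was the fibrillar chain with the smallest adjusted p in both.

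Col5a2, the partner chain of Col5a1, had 348, 306 and 342 in WT females, against 271, 240 and 185 in LCHADD females. It had 306, 289 and 372 in WT males, against 285, 295 and 284 in LCHADD males, where the groups overlapped. Col5a3, a less common chain of type V, had 314, 338 and 407 in WT females against 212, 197 and 206 in LCHADD females, and 269, 187 and 277 in WT males against 182, 201 and 193 in LCHADD males. Both chains were separated by genotype in females and overlapped in males. Col5a2 fell by 0.53 (SE 0.14, adjusted p = 0.00735) and Col5a3 by 0.77 (SE 0.14, adjusted p = 0.000830) in females. The male changes were -0.15 (adjusted p = 0.496) for Col5a2 and -0.32 (adjusted p = 0.149) for Col5a3, which without WT male 2 was -0.50 and passed (adjusted p = 0.0232). The ratio of Col5a1 to Col5a2 was 1.00 on average in LCHADD males and 1.38 in WT males, against 1.05 in LCHADD and 1.15 in WT females.

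Col11a2, a type XI chain best known from cartilage, went the other way at a low level. It had 28.2, 11.3 and 21.4 normalised reads in WT females, against 33.9, 46.6 and 42.3 in LCHADD females, and 9.96, 24.7 and 15.6 in WT males against 31.3, 27.5 and 33.0 in LCHADD males. The LCHADD libraries were above the WT libraries in both sexes. It rose by 1.05 (SE 0.35, adjusted p = 0.0309) in females, with an adjusted p of 0.0155 to 0.151 over 24 alternatives. The call was lost without WT female 2 (a change of 0.70), WT female 3, LCHADD female 2 or LCHADD female 3, with no filter on low values, and with only the female groups in the fit. In males the change was 0.92 (adjusted p = 0.0943), which passed without WT male 2 (1.22, adjusted p = 0.0456) and with library quality weights (0.98, adjusted p = 0.0447). Col27a1, a further cartilage chain, had 32.8 to 72.0 normalised reads over the 12 libraries, passed in neither sex and overlapped in both. Its female change was -0.34, and with library quality weights it was -0.65 and passed (adjusted p = 0.0102).

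The main type IV chains of the basement membrane were not called in either sex. Col4a1 had 4832, 4274 and 5512 normalised reads in WT females, against 4385, 5076 and 3695 in LCHADD females. In males Col4a1 had 4686, 4196 and 5033 in WT, against 4805, 4131 and 4225 in LCHADD. The genotypes overlapped in both sexes, and the spread within a group was as wide as the gap between groups. Its log2 change was -0.16 (SE 0.12, adjusted p = 0.326) in females and -0.080 (SE 0.12, adjusted p = 0.694) in males.

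Col4a2, which pairs with Col4a1 in the same molecule, had 4075, 3854 and 4381 in WT females against 3678, 4058 and 3234 in LCHADD females. In males Col4a2 had 4014, 3457 and 3995 in WT, against 4001, 3603 and 3341 in LCHADD. Its change was -0.17 (SE 0.095, adjusted p = 0.187) in females and -0.068 (SE 0.095, adjusted p = 0.682) in males. Without LCHADD female 2, which held the highest value of that group, the female change of Col4a2 was -0.25 and passed (adjusted p = 0.0427). The ratio of Col4a1 to Col4a2 reads lay between 1.11 and 1.26 in WT and between 1.14 and 1.26 in LCHADD libraries.

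The remaining type IV chains, which form networks best known from the kidney glomerulus and other special membranes, did not pass in either sex. Col4a5 had 559 to 746 normalised reads over the 12 libraries. Its change was 0.083 (adjusted p = 0.559) in females and -0.21 (adjusted p = 0.178) in males, and in males all LCHADD libraries lay below the WT libraries. Col4a4 ranged from 82.4 to 183, Col4a3 from 21.1 to 61.8 and Col4a6 from 1.23 to 27.4 normalised reads. In females Col4a3 was lower in all LCHADD libraries than in any WT library (-0.51, SE 0.27, adjusted p = 0.165).

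Both chains at the edge of the basement membrane fell in females; their difference from Col4a1 was not tested. Col15a1, whose protein anchors the membrane of muscle and capillaries to fibrils, had 1106, 1081 and 1085 normalised reads in WT females, against 834, 743 and 748 in LCHADD females. In males Col15a1 had 991, 890 and 1020 in WT, against 884, 911 and 708 in LCHADD. The female groups stood well apart, while LCHADD male 2 lay above WT male 2. Col15a1 fell by 0.49 (SE 0.097, adjusted p = 0.00121) in females, and the change was -0.22 (adjusted p = 0.145) in males.

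Col18a1, from whose chain the fragment endostatin is cut, had 163, 140 and 163 normalised reads in WT females, against 118, 102 and 94.0 in LCHADD females. WT males had 172, 144 and 145, and LCHADD males 112, 81.3 and 125. Both sexes were separated by genotype. It fell by 0.57 (SE 0.17, adjusted p = 0.0155) in females and by 0.55 (SE 0.17, adjusted p = 0.0351) in males. The female call was lost without WT female 1 or WT female 3, and the male call without any male library but LCHADD male 3, with an adjusted p of up to 0.0724 in females and 0.143 in males.

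Type VI collagen forms beaded filaments that link cells, basement membranes and fibrils. Col6a1 had 855, 915 and 863 normalised reads in WT females, against 547, 528 and 473 in LCHADD females. WT males had 848, 742 and 918, and LCHADD males 598, 592 and 595. The groups were far apart in females and apart in males, where the LCHADD libraries lay close together. Col6a1 fell by 0.77 (SE 0.090, adjusted p = 1.58e-05) in females, a fold of 0.588, and by 0.48 (SE 0.090, adjusted p = 0.00216) in males.

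Col6a2, its partner, had 918, 925 and 901 in WT females against 592, 566 and 466 in LCHADD females, and 967, 747 and 967 in WT males against 711, 649 and 655 in LCHADD males. Again the genotypes did not overlap, with WT male 2 the closest WT library. Col6a2 fell by 0.76 (SE 0.11, adjusted p = 9.50e-05) in females and by 0.40 (SE 0.11, adjusted p = 0.0218) in males. Its male call was lost without WT male 1, WT male 3, LCHADD male 2 or LCHADD male 3, with an adjusted p of up to 0.104. The ratio of Col6a1 to Col6a2 ranged from 0.876 to 0.993 in WT and from 0.842 to 1.02 in LCHADD libraries.

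The largest chain of type VI comes from Col6a3 or from Col6a6. Col6a3 had 556, 536 and 534 normalised reads in WT females, against 418, 388 and 371 in LCHADD females. In males it had 560, 386 and 502 in WT, against 402, 512 and 454 in LCHADD, and these overlapped. Col6a3 fell by 0.47 (SE 0.13, adjusted p = 0.00983) in females, and the male change was -0.072 (SE 0.13, adjusted p = 0.747). Its ratio to Col6a2 was 0.517 to 0.606 in WT and 0.566 to 0.796 in LCHADD libraries.

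Col6a6 had 106, 97.1 and 105 normalised reads in WT females, against 31.7, 73.8 and 54.9 in LCHADD females. WT males had 126, 139 and 138, and LCHADD males 95.9, 119 and 93.3. No LCHADD library reached a WT library of its sex, and the LCHADD females were widely spread. It fell by 1.01 (SE 0.23, adjusted p = 0.00346) in females, and by a fit that weights libraries by their quality the female change was -1.56. The male change of -0.39 did not pass (adjusted p = 0.272).

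Fibril-associated chains sit on the surface of fibrils. Among them Col16a1 had 79.0, 79.8 and 90.7 normalised reads in WT females, against 45.9, 37.9 and 39.1 in LCHADD females. WT males had 68.7, 80.1 and 99.5, and LCHADD males 67.7, 58.4 and 58.0. The female groups were well apart, and the male groups only just, with 67.7 in LCHADD male 1 against 68.7 in WT male 1. Col16a1 fell by 1.01 (SE 0.18, adjusted p = 0.000579) in females and changed by -0.41 (adjusted p = 0.139) in males.

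Col22a1, known from junctions of muscle with tendon and matrix, was near the limit of detection. It had 12.5, 13.9 and 12.8 normalised reads in WT females, and in LCHADD females 3.28 in library 1 and 0 in libraries 2 and 3. These were 47 reads in WT and 3 reads in LCHADD females, a ratio of 0.0795 with an exact 95% interval of 0.0158 to 0.247 that covers counting error only. It passed in females (adjusted p = 0.00195), and in males it had 14.9, 9.86 and 11.2 in WT, against 8.34, 2.29 and 1.14 in LCHADD (adjusted p = 0.0993). The chain entered the test through WT libraries alone, 5 of which and 0 of the LCHADD libraries reached 10, so a lower level in LCHADD was part of how it came to be tested.

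Among the remaining fibril-associated chains, Col12a1 rose in females, from 10.2, 3.47 and 7.70 normalised reads in WT to 17.5, 20.4 and 14.8 in LCHADD. The change was 1.28 (SE 0.42, adjusted p = 0.0267), and it was lost without WT female 2, LCHADD female 1 or LCHADD female 2, with no filter on low values, and with only the female groups in the fit, with an adjusted p of up to 0.125. In males Col12a1 had 6.17 to 9.96 in WT and 5.69 to 7.29 in LCHADD libraries and did not pass (-0.38, adjusted p = 0.586). The chain entered the test almost wholly through the LCHADD females, since the 3 LCHADD libraries at 10 or more were these, beside 1 WT library. A higher level in LCHADD females was thus part of how it came to be tested. Col14a1, a fibril-associated chain of soft tissue, ranged from 81.7 to 254 and missed the threshold in females (-0.56, SE 0.21, adjusted p = 0.0516). By edgeR on the recovered reads it passed (adjusted p = 0.0336). Col20a1 had 6.25 to 13.9 normalised reads and passed in neither sex. It entered the test through WT libraries alone, with 5 WT and 0 LCHADD libraries at 10 or more.

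Col13a1 spans the cell membrane and is known from the junction of nerve and muscle. It had 11.7, 27.7 and 25.7 normalised reads in WT females against 6.56, 8.74 and 6.34 in LCHADD females, and 31.9, 22.2 and 24.2 in WT males against 12.5, 6.87 and 9.10 in LCHADD males. Every LCHADD library was below every WT library of its sex. Its change was -1.39 in females (SE 0.37, adjusted p = 0.00984) and -1.39 in males (SE 0.37, adjusted p = 0.0206). The female call was lost without WT female 2, and the male call without WT male 1, WT male 3, LCHADD male 2 or LCHADD male 3 and with no filter on low values. The chain entered the test almost wholly through WT, with 6 WT libraries and 1 LCHADD library at 10 or more, so a lower level in LCHADD was part of how it came to be tested. Col23a1, a related membrane chain, had 13.1 to 59.5 normalised reads and missed the threshold in females (-0.90, adjusted p = 0.0665). Without LCHADD female 3 it was -1.33 and passed (adjusted p = 0.00489). Col8a1, a network chain of vessels, had 137 to 297 and changed by 0.20 in females (adjusted p = 0.474) and 0.078 in males (adjusted p = 0.830). With library quality weights Col8a1 passed as higher in females (0.53, adjusted p = 0.00732) and, averaged over females and males, by 0.34 (adjusted p = 0.0217). Col28a1 had 2.91 to 11.4 and passed in neither sex.

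The 7 chains not tested had at most 14.2 normalised reads in any library. They were Col7a1 of anchoring fibrils, Col8a2, Col9a2, Col9a3, Col17a1, Col25a1 and Col26a1, and no direction is given for them. Chain genes left out by the rule, such as the cartilage chain gene Col2a1, averaged 1.03 normalised reads or less.

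The sexes were compared directly with the interaction of genotype and sex, the test of whether the genotype difference differs between females and males. No collagen chain passed it by limma, and 6 of 29 had an unadjusted p under 0.05, as did 1363 of the 13865 tested genes. The edgeR and DESeq2 tests on the recovered reads called 0 chains too. Over all tested genes 1 passed by limma (0.00721%), 2 by edgeR and 101 by DESeq2. DESeq2 gave an adjusted p for only 5532 genes here, and a chain without one counted as not called. So the 9 chains that fell past the threshold in females and not in males were not shown to differ between the sexes. Of the 29 interaction estimates 24 were negative, as were 6927 of the 13865 over all tested genes. A negative estimate means a lower change in females than in males, not always a fall. The median was -0.34 against 0.00020 over all tested genes. That median was -0.21 without WT male 2, -0.23 without LCHADD female 3 and -0.20 with library quality weights. Their smallest adjusted p was that of Col12a1, at 1.66 (SE 0.59, adjusted p = 0.363), a chain that entered the test almost wholly through LCHADD females. In a fit with library quality weights, in which LCHADD female 1 weighed 5.51 and LCHADD female 2 weighed 0.222, Col4a5 (0.42, adjusted p = 0.0468) and Col6a6 (-1.16, adjusted p = 0.0121) passed, beside 5.40% of all tested genes.

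**Figure D4:**
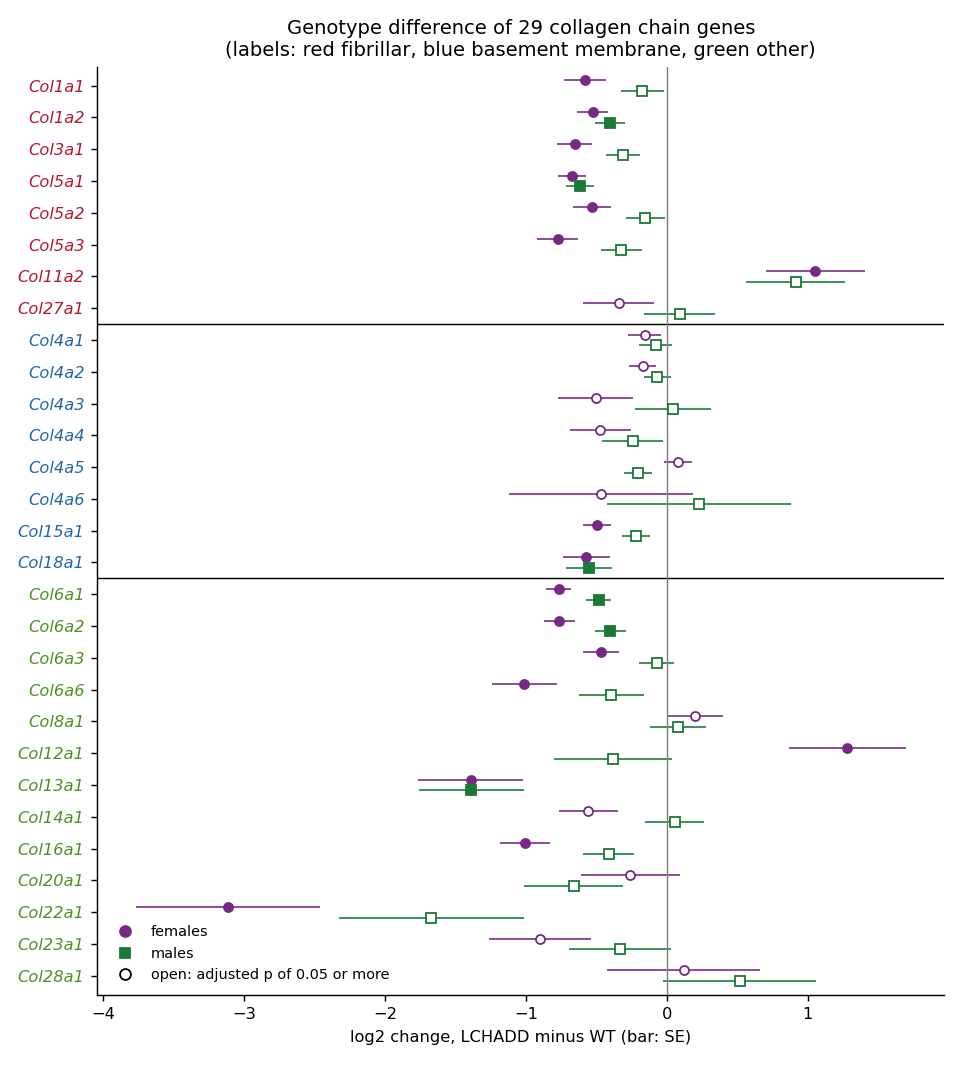
Points are the log2 change of LCHADD minus WT for each of the 29 tested chains, circles for females and squares for males, with the SE of the fit as bars and filled symbols for an adjusted p under 0.05. Most circles of fibrillar and type VI chains lie left of the squares of the same gene, and Col4a1 and Col4a2 lie close to 0 in both sexes.

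Averaged over genotypes, 3 chains differed between the sexes, where 4.37% of all tested genes did, 1.89% higher and 2.48% lower in females. Col14a1 was higher in females by 0.78 (SE 0.15, adjusted p = 0.00810). It had 144 to 254 normalised reads in WT females and 110 to 156 in LCHADD females, against 81.7 to 114 in WT males and 87.5 to 112 in LCHADD males. Col1a2 (-0.33, SE 0.077, adjusted p = 0.0230) and Col6a6 (-0.69, SE 0.16, adjusted p = 0.0266) were lower in females. Both of these calls were lost when single libraries were left out, while that of Col14a1 was kept in each of those fits. The ratio of Col1a1 to Col1a2 averaged 0.910 in WT females against 0.652 in WT males, and 0.876 in LCHADD females against 0.757 in LCHADD males.

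In the mean of both sexes, 15 chains fell and 1 rose, where 40.8% of all tested genes passed, 20.6% as lower and 20.3% as higher. All 15 had also fallen in females, Col11a2 rose and Col12a1 did not pass. 7 chains were lower in all 6 LCHADD libraries than in any of the 6 WT libraries (9.91% of all tested genes were), and these were Col3a1, Col5a1, Col18a1, Col6a1, Col6a2, Col16a1 and Col22a1. Of these, Col22a1 entered the test through WT libraries alone, and Col13a1, among the 15, almost wholly through WT. The smallest adjusted p were those of Col6a1 (-0.63, SE 0.064, adjusted p = 2.35e-06) and Col5a1 (-0.65, SE 0.072, adjusted p = 5.79e-06). Col6a3, also among the 15, changed by -0.27 (SE 0.089, adjusted p = 0.0244). That call was lost without WT female 1, WT male 1, WT male 3 or LCHADD male 1, with an adjusted p of up to 0.0729.

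The make-up of the collagen RNA differed accordingly, given here as a description without a test. Col4a1 and Col4a2 held 45.2% to 49.8% of all collagen chain reads in WT libraries and 49.4% to 56.8% in LCHADD libraries. The fibrillar chains held 24.5% to 26.9% in WT and 20.6% to 24.6% in LCHADD. For 1 read of Col3a1 there were 2.37 to 2.81 reads of Col4a1 in WT and 2.88 to 3.80 in LCHADD libraries, with no overlap. Col3a1 by itself already separated the genotypes. The ratio of Col4a1 to Col1a1 did overlap, as it reached 7.46 in WT libraries and began at 6.61 in LCHADD libraries. Summed, the 3 chains of types I and III had 3695 normalised reads on average in WT females, 2448 in LCHADD females, 3680 in WT males and 2952 in LCHADD males. The sum of Col6a1, Col6a2 and Col6a3 was 2334 and 1450 in WT and LCHADD females, and 2213 and 1723 in WT and LCHADD males.

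**Figure D5:**
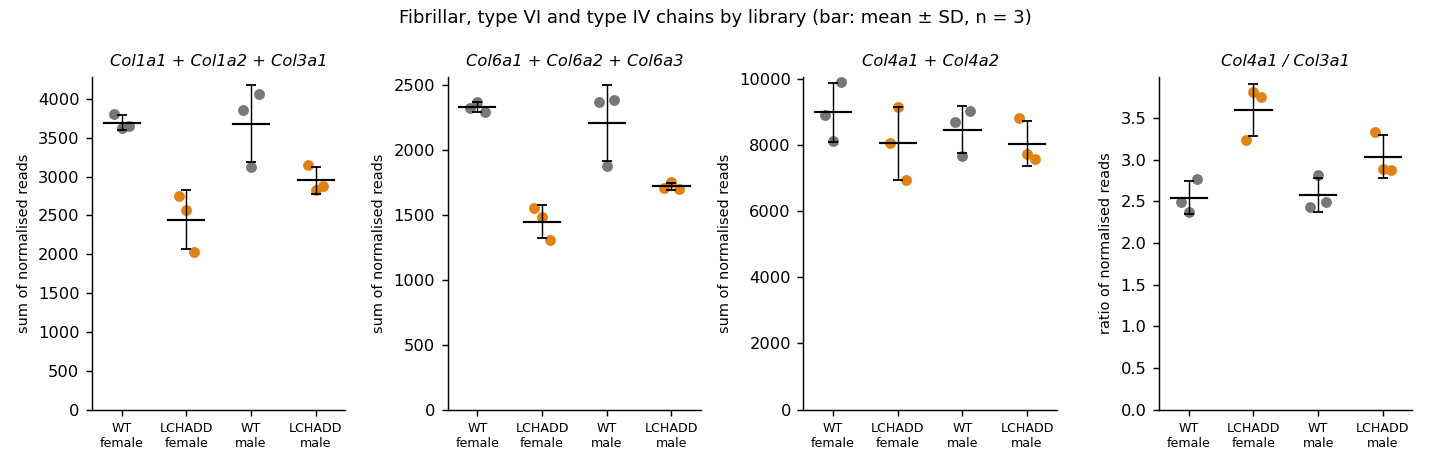
Points are libraries and bars the mean ± SD (n = 3) of the summed normalised reads of types I and III, type VI and type IV chains, and of the ratio of Col4a1 to Col3a1, in the 4 groups. The LCHADD females lie below WT in the sums of fibrillar and type VI chains, the type IV sums overlap, and the ratio lies at 2.88 to 3.80 in the 6 LCHADD libraries and at 2.37 to 2.81 in the 6 WT libraries.

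Genes that make and handle collagen were counted in the same way, and each count reads against the share of all tested genes, 17.2% lower and 16.7% higher in females and 7.77% lower and 7.71% higher in males. Among 19 tested genes of collagen synthesis in the endoplasmic reticulum, 4 fell and 3 rose in females, with a median of -0.13, and 3 fell and 0 rose in males, so the female counts lay near those shares. Those that fell in females included Fkbp10, a folding helper of procollagen (-0.80, adjusted p = 0.00177), and Colgalt2, which adds sugar to collagen (-0.74, adjusted p = 0.00213). The 3 that rose were Mia2, which helps load large cargo for export (0.42, adjusted p = 0.00159), P4hb, a subunit of the prolyl hydroxylase (0.43, adjusted p = 0.00243), and P3h2, a prolyl hydroxylase (0.91, adjusted p = 0.0177). Serpinh1, the collagen chaperone, changed by 0.39 (adjusted p = 0.151) and Plod1, a lysyl hydroxylase, by -0.23 (adjusted p = 0.0686).

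The enzymes that trim and crosslink collagen outside the cell fell in 7 of 13 cases in females, with a median of -0.48, and in 3 of 13 in males, and 0 rose in either sex, where 17.2% and 7.77% of all tested genes fell. Pxdn, which crosslinks type IV collagen, fell by 0.52 (adjusted p = 0.000710) in females and by 0.33 (adjusted p = 0.0306) in males. Pcolce, which speeds removal of the end of procollagen, fell by 0.46 (adjusted p = 0.00353) and Adamts2, which removes the other end, by 0.49 (adjusted p = 0.00358) in females. The crosslinking enzyme Tgm2, at the highest level of this list, changed by -0.023 (adjusted p = 0.908). Of 7 collagen receptors 2 fell in females, Itga11 by 1.21 (adjusted p = 0.00928) and Mrc2 by 0.38 (adjusted p = 0.0188), and 0 of 7 passed in males. Itgb1, the shared integrin subunit, changed by -0.050 (adjusted p = 0.595) and Itga1, its partner in a collagen receptor, by -0.11 (adjusted p = 0.523) in females.

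Proteins that bind fibrils fell in 7 of 14 cases in females (17.2% of all tested genes) and in 5 of 14 in males (7.77% of all tested genes), and 1, Thbs4, rose in females (1.17, adjusted p = 0.00172). Dcn, which coats fibrils, fell by 0.65 (adjusted p = 7.95e-06) in females and by 0.54 in males (adjusted p = 0.000151). Thbs2, a thrombospondin of the matrix, fell by 1.12 (adjusted p = 3.22e-05) and Ogn, a relative of Dcn, by 0.67 (adjusted p = 3.25e-05) in females. Sparc and Bgn, both abundant, did not pass (-0.077 and 0.085 in females, adjusted p = 0.589 and 0.516). The partners of type IV collagen in basement membranes fell in 6 of 14 cases in females and 5 of 14 in males, against the same 17.2% and 7.77%, and 0 rose. The laminin chains Lama5, Lama4 and Lamb2 fell by 1.33 (adjusted p = 3.36e-05), 0.62 (adjusted p = 1.57e-05) and 0.62 (adjusted p = 0.000119) in females, and Lamc1, the laminin chain shared by most laminins, changed by 0.023 (adjusted p = 0.892). Lamb1 changed by -0.23 (adjusted p = 0.0593).

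Of 9 genes of collagen removal, 4 fell and 1 rose in females, and 1 fell in males. Over all tested genes 17.2% fell and 16.7% rose in females and 7.77% fell in males, so the single rise and the single male fall lay near those shares. Timp2, an inhibitor of matrix metalloproteinases, fell by 0.92 (adjusted p = 8.28e-07) in females and 0.75 in males. The gelatin-cutting proteases Mmp9 and Mmp2 fell by 1.71 (adjusted p = 0.000570) and 0.61 (adjusted p = 0.000706), and Ctsk, a lysosomal collagen-cutting protease, rose by 0.65 (adjusted p = 0.0197) in females. The inhibitors Timp3 (-0.17, adjusted p = 0.329) and Timp4 (-0.48, adjusted p = 0.132) did not pass there. In the TGF-beta arm, the signalling route best known for raising collagen transcription, 7 of 17 genes fell and 2 rose in females, and 5 fell and 1 rose in males. Of all tested genes 17.2% fell and 16.7% rose in females and 7.77% fell and 7.71% rose in males, so the rises were no more frequent than over all genes. Smad3, a transcription factor of the route, fell by 1.18 (adjusted p = 1.55e-05) in females and 0.67 in males (adjusted p = 0.00430). Ltbp4, which holds latent TGF-beta in the matrix, fell by 0.56 (adjusted p = 0.000134) and Ccn2, a target gene, by 1.30 (adjusted p = 0.000135) in females. The ligand gene Tgfb2 rose in females (0.91, adjusted p = 0.0429), and Smad4 (-0.035, adjusted p = 0.778) and Skil (0.30, adjusted p = 0.162) did not pass.

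Markers of the cells that make collagen were also lower in LCHADD, and their counts read against 17.2% of all tested genes lower in females and 7.77% in males. Of 8 fibroblast markers 7 fell in females and 4 in males, and their summed level was 21699 to 23098 normalised reads in WT females, 12301 to 14249 in LCHADD females, 22022 to 23713 in WT males and 15849 to 16687 in LCHADD males. Pdgfra, a defining fibroblast marker, fell by 0.54 (adjusted p = 0.00306) in females and changed by -0.21 (adjusted p = 0.273) in males. Dcn, Lum and Dpt are also in the list of fibril partners. Per read of Pdgfra there were 8.63 to 11.3 reads of fibrillar chains in WT and 7.68 to 11.6 in LCHADD libraries, ranges that overlapped. Of 5 tested markers of activated fibroblasts 1 rose in females, Meox1 (0.48, adjusted p = 0.0322), and Postn changed by 0.18 (adjusted p = 0.325). Over all tested genes 16.7% rose in females, so that count lay near this share.

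Endothelial markers fell in 4 of 6 cases in each sex, where 17.2% of all tested genes fell in females and 7.77% in males, with summed levels of 11461 to 12649 in WT and 9332 to 10408 in LCHADD females. In males these were 11522 to 12464 and 9268 to 10424. There were 1.92 to 2.44 reads of Col4a1 for each read of Pecam1, an endothelial marker, in WT and 2.25 to 3.20 in LCHADD libraries. Mural markers fell in 3 of 6 cases in each sex, cardiomyocyte markers in 5 of 6 in females and 1 of 6 in males, and erythroid markers in 3 of 3 in each. Macrophage markers rose in 2 of 5 cases in females and 0 of 5 in males, where 16.7% and 7.71% of all tested genes rose. Smooth muscle markers fell in 0 of 2 cases in females and 1 of 2 in males, Schwann markers in 1 of 3 and 0 of 3, and the single tested epicardial marker in neither sex. No marker was at 0 in all libraries, and the 3 adipocyte markers were too low to test. In tissue RNA, fewer cells of a type and less RNA per cell cannot be told apart, and the part of the cell markers and of the mitochondrial share in the collagen results was not tested.

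Promoter sequence was at hand for 28 of the 36 genes in the RefSeq table (GRCm38.p6), as 30 windows. The 250 bases before the annotated start are printed for 3 fibrillar chains chosen by their measured values. They are Col3a1, the most abundant, Col5a1, which fell in both sexes, and Col11a2, which rose in females at a low level. Capitals mark GGGCGG (or CCGCCC on the other strand) and TATAAA (or TTTATA), each read on both strands.
Col3a1, chr1:45311288-45311537, plus strand: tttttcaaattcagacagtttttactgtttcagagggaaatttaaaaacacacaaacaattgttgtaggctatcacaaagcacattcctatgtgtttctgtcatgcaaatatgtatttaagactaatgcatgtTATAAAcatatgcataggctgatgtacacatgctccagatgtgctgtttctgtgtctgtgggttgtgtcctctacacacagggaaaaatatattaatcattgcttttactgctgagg
Col5a1, chr2:27886175-27886424, plus strand: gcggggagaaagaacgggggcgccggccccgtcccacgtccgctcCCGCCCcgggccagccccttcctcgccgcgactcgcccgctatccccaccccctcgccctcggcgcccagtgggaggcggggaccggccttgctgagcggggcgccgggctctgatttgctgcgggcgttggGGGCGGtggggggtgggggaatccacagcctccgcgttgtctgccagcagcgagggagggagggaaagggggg
Col11a2, chr17:34038888-34039137, plus strand: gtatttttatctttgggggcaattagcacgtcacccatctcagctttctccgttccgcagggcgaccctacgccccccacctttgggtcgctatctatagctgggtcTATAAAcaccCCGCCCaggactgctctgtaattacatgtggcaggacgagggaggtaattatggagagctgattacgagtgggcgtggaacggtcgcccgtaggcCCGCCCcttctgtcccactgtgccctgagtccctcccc
The windows of Col5a1 and Col11a2 hold GGGCGG and that of Col3a1 does not. GGGCGG occurred in 19 of the 30 collagen windows (63.3%) and in 32.7% of all 32851 windows of the same length, TATAAA in 4 of 30 (13.3%) and 12.4%, and CCAAT, also read on both strands, in 10 of 30 (33.3%) and 33.8%. These are letters in a window, not binding sites. The windows of Col4a1 and Col4a2, which start on opposite strands, shared 78 bases, and since the use of strand in counting is not given, reads near that start may be shared between the pair. The windows of Col4a5 and Col4a6, a second such pair, lay 842 bases apart.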

How the data were processed

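The authors deposited 1 table of normalised counts, a signal value for each Ensembl gene ID in each library, in which counts stand divided by a library's size factor. GRCm39, bcl2fastq and DESeq2 are named, without versions, per the submitters' processing notes. Aligner, counter, annotation and strandedness were not given in the sources used here. In each library 100% of the deposited signal values were whole multiples of 1 step, within 0.01, so reads were recovered by division. Of 51912 IDs 51633 matched a symbol in GENCODE vM21 and 279 did not.

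Log2(value + 1) of the 13865 genes with at least 10 in at least 3 libraries, holding 99.9% of reads, was fitted with 4 group means in limma 3.58.1 (lmFit, eBayes with trend) in R 4.3.3, with Benjamini-Hochberg adjustment over all tested genes. Adjusted p are limma's unless another tool is named. On the recovered reads, edgeR 4.0.16 (quasi-likelihood) called 4821 genes in females and 2149 in males, and DESeq2 1.42.0 (Wald test) 4796 and 2303. On the deposited values limma called 4692 and 2146. Alternatives were the added value (5, 0.5), the filter (none, 50), TMM, upper-quartile and nuclear-read scaling, edgeR, DESeq2, the compared groups alone, the replicate number as a block, array quality weights, each library left out, and WT female 3 left out with LCHADD female 2.

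On simulated counts of 13865 genes with 200 changed, 41.8% of 1.5-fold, 70.1% of 2-fold and 86.4% of 4-fold changes passed in the female comparison (6.38% of calls were unchanged genes), 47.8%, 71.6% and 90.9% in the male one (7.28%), and 5.97%, 50.7% and 80.3% in the interaction (4.21%). In the data 4692 genes passed in females and 2146 in males, many more than were changed in the simulation. The adjustment depends on that share, so the simulated percentages need not hold for the genotype comparisons. Members, gene lists and tests were chosen with earlier results of these data known. Values in every library are given for chains that passed in a genotype comparison or the interaction with a mean of at least 50 and for the 3 most abundant of each class. Some chains of lower mean are also given so, chosen after their values were seen. From each list of genes that make, bind, sense or remove collagen up to 3 genes that passed, by smallest adjusted p, and the 2 most abundant that did not were named. Rising genes beyond these, where 3 or fewer rose, were named after their values were seen. 1 gene of the lists is counted but not reported by name here. Cell markers named singly, gene pairs for ratios, and coding features, were chosen after seeing the data.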

Additional observations from a re-analysis of the deposited data

How the results depend on the processing

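Of the 29 tested chains, 14 to 22 passed in females (17 as reported; 14 to 18 with libraries left out) and 13 to 18 in the mean of both sexes (16 as reported; 15 to 18) over the alternatives run. In males 6 passed as reported, 2 to 8 with libraries left out and 4 to 9 otherwise. The interaction called 0 chains in each fit but that with array quality weights, which called 2. The sexes averaged over genotypes differed in 3 chains as reported, in 7 with array quality weights and in 1 to 4 with libraries left out. With the replicate number as a block, 17, 6, 16, 0 and 3 chains passed, as many as without it. Of 18 same-numbered pairs of libraries 0 correlated above 0.1 (-0.11 to 0.049), against 1 of 36 differently numbered pairs (-0.12 to 0.15). So the numbers showed no pairing by this measure, which cannot exclude a shared origin of same-numbered libraries. Direction turned only in changes that had not passed. In males Col4a3 was -0.031 by edgeR and -0.025 by DESeq2 and Col4a6 -0.35 and -0.32, and Col4a5 was 0.0095 in the mean of both sexes with array quality weights. With libraries left out, the change in females ran from -0.015 to 0.18 for Col4a5 and from -0.28 to 0.68 for Col28a1. In males it ran from -0.0077 to 0.16 for Col27a1, -0.26 to 0.20 for Col4a3, -0.78 to 0.83 for Col4a6, -0.22 to 0.043 for Col6a3, -0.081 to 0.25 for Col8a1, -0.048 to 0.20 for Col14a1 and -0.62 to 0.051 for Col23a1. In the mean of both sexes that of Col4a6 ran from -0.63 to 0.18. The cause was not tested. Depth limits chains of few reads such as Col12a1, Col22a1 and Col28a1: the female change of Col22a1 was -3.11 with an added value of 1 and -1.61 with an added value of 5.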
